A study of Homo sapiens with 8 samples.

Results

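The genes described here are 42 genes of granulocyte granules and of the granulocyte lineages, of 19775 genes measured. They were taken by symbol from a fixed list that was chosen with earlier results of these data known. Only array probe sets whose platform annotation names exactly 1 gene were used. All 42 were found, no filter on low values was applied, and 1 probe set stood for each gene. The list holds 6 genes of primary granules, 14 of secondary granules, 2 of tertiary granules, 7 of shared content, packaging and inhibitors, 7 of eosinophils and 6 of basophils and mast cells.

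RNA came from K562 cells, an established human line with erythroid features that was derived from chronic myeloid leukaemia at its blast stage. All cells, controls included, were stably transfected with p42 C/EBPa-ER, the full-length form of the transcription factor C/EBPα joined to the oestrogen receptor (ER), which estradiol brings into the nucleus. One group received beta-estradiol at 1 µM and the other ethanol vehicle, each for 6 h in phenol red-free RPMI medium with charcoal-stripped serum, with 4 arrays per group that the titles call biological replicates. The promoter that drove the fusion, and whether the line was 1 clone, were not stated in the labels, and no cells without the fusion are among the samples, so effects of the fusion and of estradiol itself cannot be told apart.

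Neutrophils store proteins in granules that form one after another during maturation. Primary granules, filled at the promyelocyte stage, hold myeloperoxidase and serine proteases, secondary granules hold lactoferrin and other antimicrobial proteins, and tertiary granules hold gelatinase. C/EBPα is needed for granulocyte-macrophage progenitors to form, and its relative C/EBPε for the secondary granule programme. Eosinophils, basophils and mast cells have granules of their own, with basic proteins, histamine-forming enzymes and proteases.

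Values are log2 expression values. Array medians lay between 4.97 and 5.08 and lower quartiles between 3.67 and 3.74, and within a group every pair of arrays correlated across genes at 0.995 or more. Of 11 erythroid markers 9 were measured, and all 9 lay above the medians of all arrays. Among them GATA1 fell by 0.89 ± 0.04 (SE), KLF1 by 0.71 ± 0.04 and HBE1 by 0.17 ± 0.04 on the log2 scale. HBE1 was not called after median centring or with the mean of its probe sets (−0.08, adjusted p = 0.351). The other 6 erythroid markers were not called. Of these TAL1 and TFRC were each 0.08 higher with estradiol, while AHSP (−0.18), EPOR (−0.145), HBZ (−0.04) and ALAS2 (−0.02) were lower. Of 15 markers of T cells, B cells, monocytes, stroma, endothelium and epithelium 14 were measured, and 8 lay above the medians of all arrays, EPCAM (mean log2 value 10.90) and CD3D (7.96) among them. Their mean log2 value was 5.71 to 5.79 over the estradiol arrays and 5.73 to 5.80 over the vehicle arrays, and PECAM1 alone was called (0.56 ± 0.07 SE). The part of these markers in the results was not tested.

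After estradiol 8 of the 42 genes rose and 1 fell (limma, Benjamini-Hochberg adjusted p below 0.05 over all genes). The largest rises were those of PTX3, a soluble pattern recognition protein stored in secondary granules, MS4A3, a membrane protein of granulocyte precursors and basophils, and SRGN, the proteoglycan core that packs granule contents. HP, SERPINB1, PRG2, LYZ and TCN1 rose by less, and ELANE fell. The other 33 genes did not pass the test, MPO, CTSG, LTF, LCN2, CAMP, MMP8 and MMP9 among them. In a culture as a whole, more cells with a transcript and more transcript per cell cannot be told apart.

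The 9 called genes were 21.4% of the 42, against 17.9% of all genes called in either direction. The 8 rises made up 19.0%, against 8.29% of all genes called higher, and the 1 fall 2.38%, against 9.6% of all genes called lower. A rise of at least 1.5-fold was called for 4 of the 42 genes (9.52%, against 1.95% of all genes), and one of at least 2-fold for 3 (7.14%, against 0.769%). Estradiol and vehicle values were fully separate for 7 genes that were higher (11.1% of all genes) and 1 that was lower (12.9% of all genes). Together these were 19.0% of the 42, against 24.1% of all genes. The median difference over the 42 genes was 0.01 on the log2 scale, with −0.03 over all genes, and 24 of the 42 differences were above 0. Because the 42 genes were chosen with earlier results of these data known, the shares are a description and no test of the set. The sources do not say how the replicate cultures were separated, so the p-values cover only the spread among these arrays, which may be technical.

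**Figure D1:**
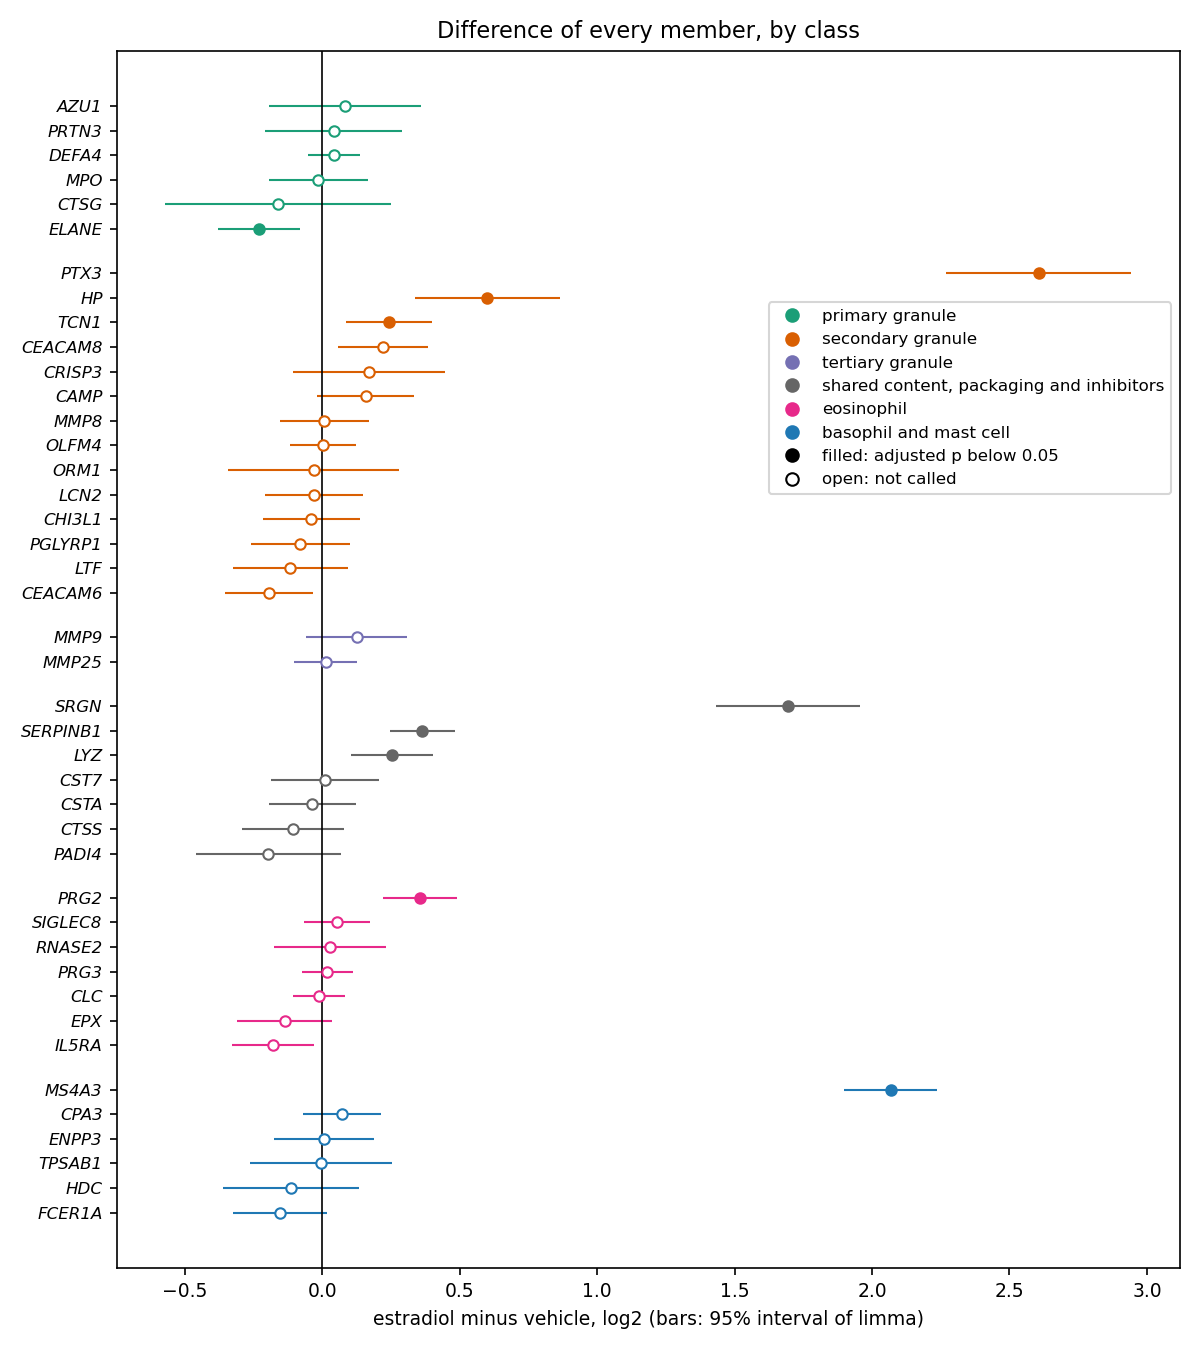
Difference between estradiol and vehicle (log2) for each of the 42 genes, with 4 arrays per group. Points are limma estimates, bars are 95% intervals, colours are classes, and filled points passed the test. PTX3, MS4A3 and SRGN stand apart at 2.61, 2.07 and 1.69, and 33 open points lie between −0.20 and 0.22.

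RefSeq promoter sequences (GRCh38.p14) were at hand for 27 of the 42 genes, and for 4 of the 9 called genes. The 250 bases before the annotated start of these 4 are shown because they belong to members that moved, with letters of a C/EBP motif core in capitals (TTGCNNAA, read on both strands).
MS4A3: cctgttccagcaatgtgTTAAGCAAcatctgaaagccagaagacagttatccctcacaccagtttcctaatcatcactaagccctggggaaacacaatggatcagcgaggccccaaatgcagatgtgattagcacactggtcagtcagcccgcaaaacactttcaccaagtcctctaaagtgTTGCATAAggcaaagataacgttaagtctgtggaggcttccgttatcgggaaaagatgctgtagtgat
PTX3: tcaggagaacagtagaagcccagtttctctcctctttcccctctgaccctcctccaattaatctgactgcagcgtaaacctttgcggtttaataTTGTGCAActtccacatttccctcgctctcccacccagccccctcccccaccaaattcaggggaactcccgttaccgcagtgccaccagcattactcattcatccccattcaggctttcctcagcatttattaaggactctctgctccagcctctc
TCN1: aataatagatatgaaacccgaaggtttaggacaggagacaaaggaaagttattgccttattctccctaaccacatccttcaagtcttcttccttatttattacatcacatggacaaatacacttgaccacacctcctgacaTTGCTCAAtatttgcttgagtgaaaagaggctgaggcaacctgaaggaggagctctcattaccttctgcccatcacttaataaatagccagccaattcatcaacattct
SERPINB1: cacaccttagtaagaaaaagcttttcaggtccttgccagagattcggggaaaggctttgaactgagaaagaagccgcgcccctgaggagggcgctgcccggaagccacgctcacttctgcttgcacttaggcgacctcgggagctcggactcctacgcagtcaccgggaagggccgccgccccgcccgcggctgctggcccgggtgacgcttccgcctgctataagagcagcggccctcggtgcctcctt
The windows are chr11:60056415-60056664 on the plus strand for MS4A3, chr3:157436600-157436849 on the plus strand for PTX3, chr11:59866488-59866737 on the minus strand for TCN1 and chr6:2841864-2842113 on the minus strand for SERPINB1.

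MS4A3 held the C/EBP letters 2 times, beginning 233 and 68 bases before the start, PTX3 once at 156 bases and TCN1 once at 109 bases. No match lay in the SERPINB1 window. Among the 29 promoter entries of the 27 genes (LTF had 3), 12 held these letters, 41.4%, against 9.05% of all 35116 promoters in windows of the same length. The letters were there for 3 of the 4 called genes and for 9 of the 23 genes not called, CPA3, CRISP3, LCN2 and PRTN3 among the 9. GAGGAA, the core that the myeloid factor PU.1 binds, was in 15 of the 29 entries and in 23.6% of all promoters, and the AP-1 letters TGANTCA in 3 of the 29 and in 6.57%. Each motif was read on both strands, and TGANTCA is its own reverse complement. The median GC content was 54.8% in the 29 windows and 58% in all. The lowest, ENPP3 (32%), CRISP3 (32.4%), MMP8 (36.4%) and TCN1 (40%), all held the C/EBP letters, while the next, FCER1A (42%), did not. Of the highest, AZU1 (64.8%) and PRTN3 (64.4%) held them, and SERPINB1 (63.6%) did not. The shares were not matched for GC content. These matches are a description of the letters and show no binding.

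**Figure D2:**
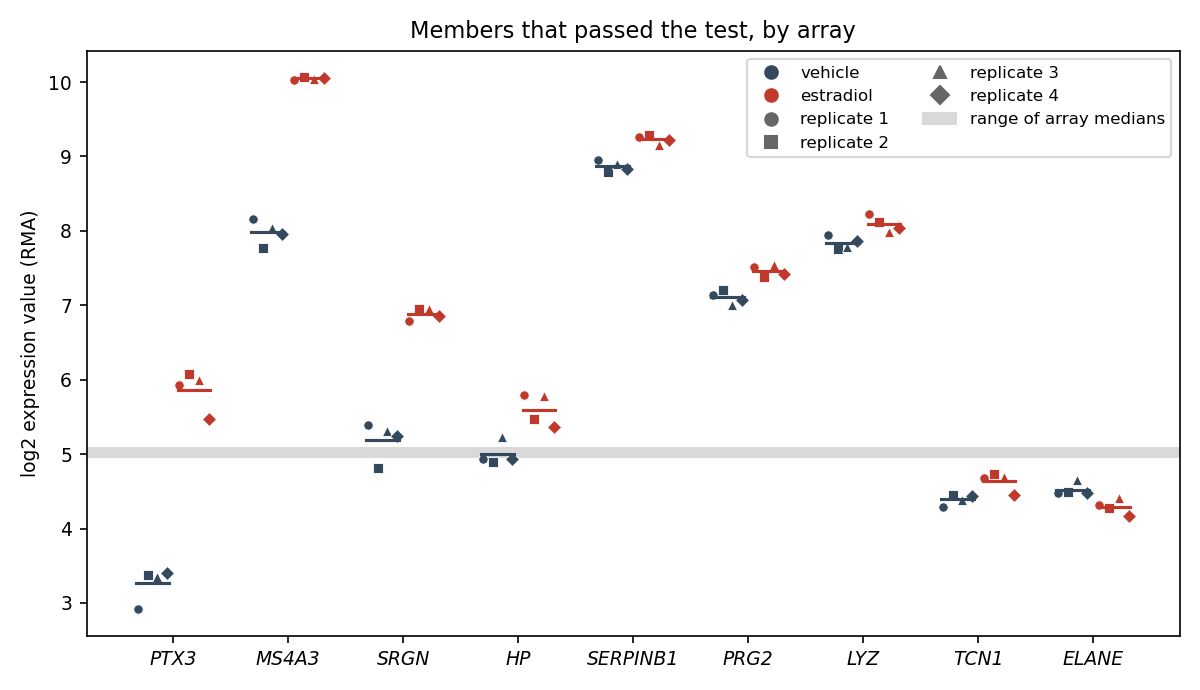
Log2 values of the 9 called genes in each array, ordered by difference. Points are arrays, horizontal lines are group means (n = 4), and the grey band is the range of the array medians. PTX3 lies below the band in all vehicle arrays and above it in all estradiol arrays, while TCN1 and ELANE lie below it in every array.

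In the primary granule class 1 of 6 genes was called, a fall (16.7%, against 17.9% of all genes called in either direction). ELANE, neutrophil elastase, had values of 4.32, 4.27, 4.42 and 4.16 with estradiol and 4.47, 4.49, 4.65 and 4.48 with vehicle, given here and below in the order of replicates 1 to 4. Every estradiol array lay below every vehicle array, and all 8 lay below the array medians. The difference was −0.23 ± 0.07 (SE, limma adjusted p = 0.0407). It lost its call under 13 of 19 alternatives, among them all 3 other scalings of the arrays and every fit that left out 1 array except that without estradiol replicate 3 (adjusted p from 0.0276 to 0.109 over the fits without 1 array). ELANE was measured by 1 probe set.

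MPO, myeloperoxidase, had values of 4.33, 4.21, 4.57 and 4.36 with estradiol and 4.32, 4.49, 4.30 and 4.43 with vehicle. The groups overlapped, with a difference of −0.02 ± 0.08 (95% interval −0.20 to 0.16), and a second MPO probe set gave 0.19 ± 0.11. CTSG, the serine protease cathepsin G, read 5.14, 5.34, 5.37 and 5.27 with estradiol and 4.99, 5.98, 5.27 and 5.53 with vehicle. Its vehicle arrays spread widely (SD 0.42), and the difference of −0.16 ± 0.18 had the widest interval of the 42 genes, −0.57 to 0.25. AZU1, the antimicrobial protein azurocidin, PRTN3, proteinase 3, and DEFA4, a defensin, differed by 0.08 ± 0.12, 0.04 ± 0.11 and 0.04 ± 0.04, each without passing the test. AZU1, PRTN3 and ELANE are direct neighbours among the protein-coding genes of chromosome 19, and of the 3 only ELANE was called. The class had a median difference of 0.01, and 5 of its 6 genes had mean values below all array medians.

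Among the 14 genes of secondary granules 3 rose, PTX3, HP and TCN1, and 11 were not called. The share called was 21.4%, against 17.9% of all genes. PTX3, which binds microbes and complement, had values of 5.92, 6.07, 6.00 and 5.48 with estradiol and 2.92, 3.38, 3.35 and 3.41 with vehicle. All vehicle values lay below the lower quartile of their arrays, and the groups were far apart. The difference was 2.61 ± 0.15 (SE, adjusted p = 4.45e-06), a 6.09-fold rise in signal, from a vehicle signal that was not shown to be above background. PTX3 was called under all 19 alternatives that could include it, with differences of 2.49 to 2.74.

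HP, haptoglobin, which binds free haemoglobin and is also kept in neutrophil granules, read 5.79, 5.47, 5.78 and 5.36 with estradiol and 4.93, 4.89, 5.24 and 4.93 with vehicle. The lowest estradiol array stood above the highest vehicle array, replicate 3. HP rose 1.52-fold (0.60 ± 0.12 SE, adjusted p = 0.00649) and was called under all 20 alternatives. Vehicle replicates 1, 2 and 4 lay below the medians of their arrays, and the vehicle signal was not shown to be above background. Because the related gene HPR is closely similar in sequence, the signal cannot be assigned to HP alone, and a probe set annotated to both genes was not used. The probe set annotated to HPR alone, with a mean of 4.24, differed by −0.12 ± 0.10 (SE, limma adjusted p = 0.527).

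TCN1, the vitamin B12-binding protein haptocorrin, gave 4.68, 4.73, 4.69 and 4.45 with estradiol and 4.30, 4.46, 4.39 and 4.44 with vehicle. The groups overlapped in 1 value of each, estradiol replicate 4 and vehicle replicate 2, and all values lay below the array medians. TCN1 rose by 0.24 ± 0.07 (SE, adjusted p = 0.0388), and lost its call under 11 of 19 alternatives. These included each fit without 1 array except those without estradiol replicate 4 or vehicle replicate 2 (adjusted p from 0.00839 to 0.108 over the fits without 1 array).

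LTF, the iron-binding protein lactoferrin, read 5.50, 5.12, 5.26 and 5.24 with estradiol and 5.55, 5.43, 5.36 and 5.24 with vehicle. Lactoferrin overlapped between the groups, with a difference of −0.12 ± 0.09 (95% interval −0.32 to 0.09). LCN2, a lipocalin that binds bacterial siderophores, read 5.44, 5.40, 5.46 and 5.35 with estradiol and 5.22, 5.62, 5.48 and 5.45 with vehicle, a difference of −0.03 ± 0.08. The lipocalin's vehicle arrays reached both above and below its estradiol arrays. CAMP, the cathelicidin antimicrobial peptide, read 5.82, 5.93, 5.94 and 6.00 with estradiol and 5.70, 5.99, 5.72 and 5.65 with vehicle. The high vehicle value was replicate 2, and the difference was 0.16 ± 0.08 (adjusted p = 0.229). Without that array CAMP was called at 0.23 (adjusted p = 0.0168). PGLYRP1, a bacterial peptidoglycan-binding protein, read 5.37, 5.40, 5.62 and 5.39 with estradiol and 5.46, 5.64, 5.62 and 5.38 with vehicle, with overlap and a difference of −0.08 ± 0.08.

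The other 7 genes of secondary granules, MMP8, CRISP3, CHI3L1, CEACAM8, CEACAM6, OLFM4 and ORM1, were not called and had mean values below all array medians, 4 of them (MMP8, CRISP3, CEACAM8 and OLFM4) below all lower quartiles. MMP8 is neutrophil collagenase, and CEACAM8 and CEACAM6 are adhesion molecules of the neutrophil surface and granules. CEACAM8 differed by 0.22 ± 0.07 (adjusted p = 0.0711) and CEACAM6 by −0.19 ± 0.07 (adjusted p = 0.102). CEACAM8 passed the test under each of the 3 other scalings of the arrays and without vehicle replicate 3, and CEACAM6 passed as a fall without vehicle replicate 2. ORM1, an acute phase protein, has the near-identical copy ORM2, and 2 probe sets annotated to both were not used. The median difference of the class was 0.01.

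Neither gene of tertiary granules was called. MMP9, gelatinase B, had values of 5.54, 5.29, 5.36 and 5.27 with estradiol and 5.26, 5.05, 5.29 and 5.35 with vehicle. The groups overlapped and differed by 0.12 ± 0.08 (95% interval −0.06 to 0.31). MMP25, a membrane-bound metalloprotease of neutrophils, gave 5.27, 5.40, 5.31 and 5.42 with estradiol and 5.32, 5.40, 5.30 and 5.33 with vehicle, a difference of 0.01 ± 0.05 with all values close together.

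Among the 7 genes of shared content, packaging and inhibitors 3 rose and 4 were not called (42.9% called, against 17.9% of all genes). SRGN, serglycin, which holds proteases and other cargo in granules through its sugar chains, had values of 6.79, 6.95, 6.95 and 6.86 with estradiol and 5.39, 4.82, 5.31 and 5.25 with vehicle. Every estradiol array lay more than 1 log2 unit above every vehicle array. SRGN rose 3.24-fold (1.69 ± 0.12 SE, adjusted p = 1.29e-05). A second probe set gave 1.24 ± 0.14, while the third, with a mean of 3.38 over the 8 arrays, gave 0.03 ± 0.09. With the mean of the 3 probe sets SRGN was still called, at 0.99.

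SERPINB1, a cytosolic inhibitor of elastase, proteinase 3 and cathepsin G, read 9.26, 9.28, 9.16 and 9.22 with estradiol and 8.96, 8.79, 8.90 and 8.83 with vehicle. The groups did not overlap, and SERPINB1 rose 1.29-fold (0.36 ± 0.05 SE, adjusted p = 0.00116). Its 4 probe sets ran from 0.18 to 0.36. LYZ, lysozyme, found in all 3 kinds of neutrophil granule and in monocytes, read 8.22, 8.11, 7.98 and 8.04 with estradiol and 7.95, 7.76, 7.78 and 7.86 with vehicle. Estradiol replicate 3 and vehicle replicate 1 nearly met. LYZ rose by 0.25 ± 0.07 (SE, adjusted p = 0.0260), and its other probe set gave 0.23 ± 0.09. Leaving out estradiol replicate 1 or 2, or any vehicle replicate but the first, ended this call (adjusted p from 0.0187 to 0.0750 over the fits without 1 array).

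CTSS, the cysteine protease cathepsin S, gave 7.39, 7.50, 7.64 and 7.67 with estradiol and 7.82, 7.51, 7.66 and 7.63 with vehicle, a difference of −0.11 ± 0.08 with overlap. Its other 2 probe sets gave −0.21 and 0.05. CSTA and CST7, inhibitors of cysteine proteases, differed by −0.04 ± 0.07 and 0.01 ± 0.09, and PADI4, the enzyme that citrullinates histones in neutrophil extracellular traps, by −0.20 ± 0.12. CSTA, CST7 and PADI4 had mean values below all array medians. The class median was 0.01, while its mean was 0.28.

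In the eosinophil class 1 of 7 genes rose and the others were not called (14.3% called, against 17.9% of all genes). PRG2, the major basic protein of the eosinophil granule, had values of 7.51, 7.38, 7.54 and 7.42 with estradiol and 7.14, 7.21, 7.00 and 7.07 with vehicle. All estradiol arrays lay above all vehicle arrays, and PRG2 rose 1.28-fold (0.36 ± 0.06 SE, adjusted p = 0.00281) and was called under all 20 alternatives. PRG3, its homologue and direct neighbour on chromosome 11, differed by 0.02 ± 0.04 (95% interval −0.07 to 0.11) at a signal below all array medians. EPX, eosinophil peroxidase, CLC, the Charcot-Leyden crystal protein, and RNASE2, eosinophil-derived neurotoxin, differed by −0.14 ± 0.08, −0.01 ± 0.04 and 0.03 ± 0.09. IL5RA, the receptor chain for the eosinophil growth factor interleukin-5, differed by −0.18 ± 0.07 (adjusted p = 0.101), and SIGLEC8, an inhibitory lectin, by 0.05 ± 0.05. The mean values of these 6 genes lay below all array medians, and the class median was 0.02.

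Among the 6 genes of basophils and mast cells MS4A3 rose and the other 5 were not called (16.7% called, against 17.9% of all genes). MS4A3 had values of 10.03, 10.06, 10.04 and 10.05 with estradiol and 8.15, 7.77, 8.04 and 7.95 with vehicle. The estradiol arrays agreed closely (SD 0.01), the vehicle arrays less so (SD 0.16), and both groups lay far above the array medians. MS4A3 rose 4.19-fold (2.07 ± 0.07 SE, adjusted p = 3.44e-07), and its second probe set gave 2.09 ± 0.07. Differences ran from 2.00 to 2.13 over the 20 alternatives, all called. Among 183 other genes called with at least a 2-fold change, DRAM1, IDH1, ACSL1, NCOA7 and KCNE3 followed MS4A3 most closely over the 8 arrays (Pearson r from 0.999 to 1.00), a description of 8 points that fall into 2 groups.

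HDC, histidine decarboxylase, which makes histamine, had values of 4.48, 4.68, 4.62 and 4.82 with estradiol and 4.77, 5.05, 4.67 and 4.57 with vehicle, a difference of −0.11 ± 0.11 with overlap. TPSAB1, a mast cell tryptase, gave 5.72, 5.68, 5.75 and 5.62 with estradiol and 5.35, 5.97, 5.75 and 5.71 with vehicle. The tryptase values with vehicle reached both above and below those with estradiol, and its 5 probe sets gave differences of −0.22 to 0.02. Tryptase genes are near-identical, so its signal cannot be assigned to TPSAB1 alone. ENPP3, the basophil activation marker CD203c, read 5.44, 5.63, 5.60 and 5.69 with estradiol and 5.54, 5.41, 5.74 and 5.64 with vehicle, a difference of 0.01 ± 0.08. CPA3, the mast cell carboxypeptidase, and FCER1A, the IgE-binding chain of the high-affinity receptor, differed by 0.07 ± 0.06 and −0.15 ± 0.08. The class median was 0.00.

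**Figure D3:**
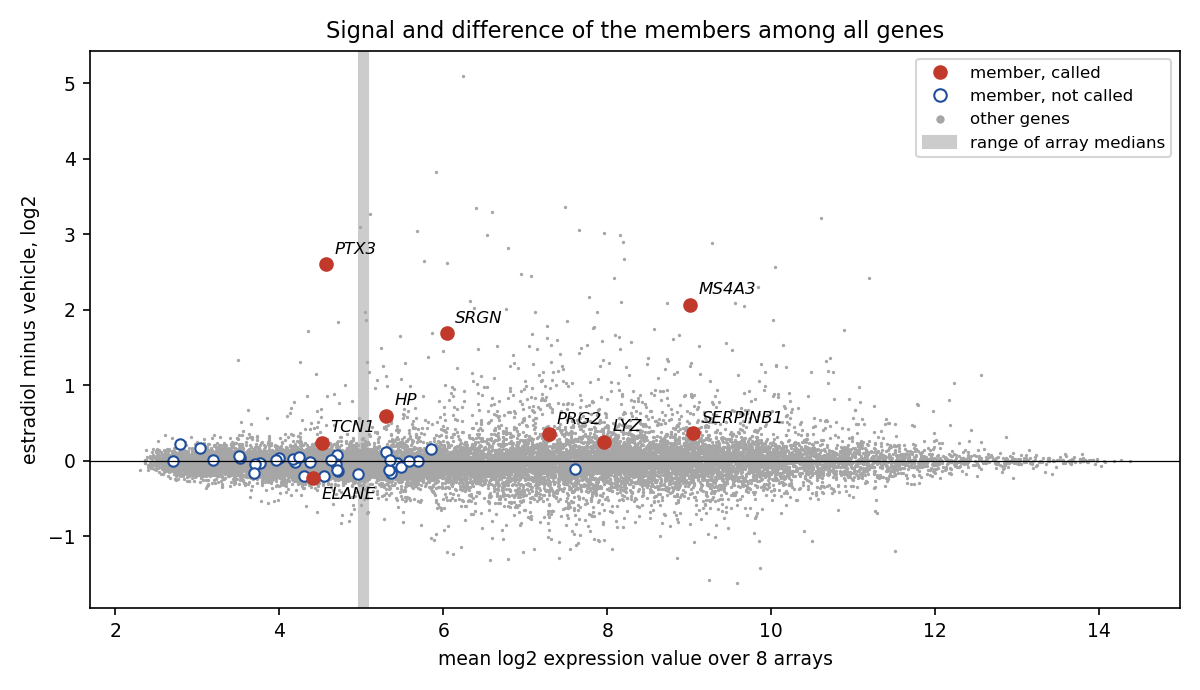
Mean log2 value over the 8 arrays against the difference between estradiol and vehicle (log2) for all 19775 genes (grey) and the 42 genes (open, not called; red, called). The vertical band is the range of the array medians, and 26 of the 42 genes lie to its left, PTX3, TCN1 and ELANE among them.

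The 33 genes that were not called had differences between −0.20 and 0.22, with standard errors of 0.04 to 0.18. For 32 of them the 95% interval lay within 0.5 of 0 on the log2 scale, CTSG being the exception. Of these 33 genes 23 had mean values below all array medians, where changes can be understated. No detection call was used for any gene, including the 10 above all array medians. Markers of other cell types also had mean values above the medians, CD3E (5.22) and COL1A2 (5.42) among them. Each interval is therefore one of the signal and does not bound the change in transcript. Over the 42 genes 16 had mean values above all array medians, 26 below all array medians, and 6 of these 26 also below all lower quartiles. Of all 19775 genes 12661 had mean values above all array medians and 6720 below, so the 42 genes were dimmer than most. Of the 16 above all medians 6 were called (37.5%), all of them rises, against 26.6% of all genes in that range called in either direction and 12.4% called higher.

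**Figure D4:**
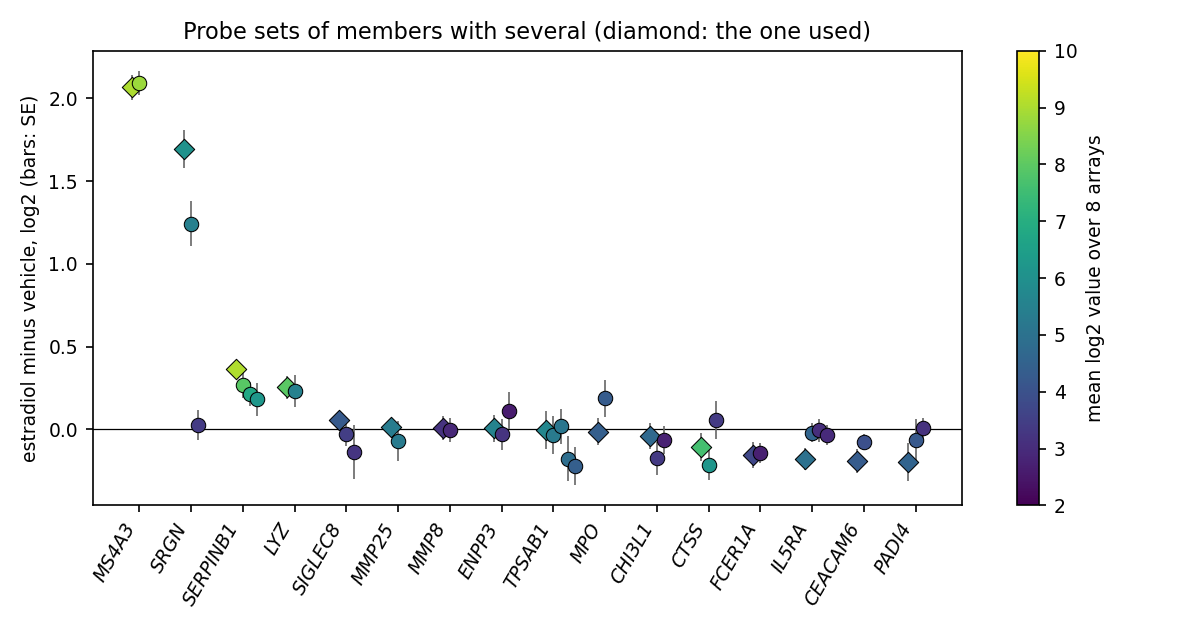
Differences (log2, bars SE) of every probe set for the 16 genes with several. Diamonds mark the probe set used, and colour gives the mean log2 value over 8 arrays. Both MS4A3 probe sets lie above 2, all 4 SERPINB1 probe sets lie above 0, and the dimmest SRGN probe set lies at 0.03.

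The 42 genes had 71 probe sets, 26 genes with 1 and 16 with several. Of the 29 probe sets that did not stand for a gene, 3 (10.3%) were called when each probe set was tested on its own, 1 each of MS4A3, SRGN and SERPINB1, all as rises, against 13.1% of all probe sets with 1 symbol. No other probe set of a gene was called in the opposite direction.

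Genes that share the granule pathway were described from 3 further lists. Of 26 other granule and secretory vesicle proteins 20 were measured, 5 rose and 2 fell (35%, against 17.9% of all genes), with a list median of −0.01. Of these 20, 12 had mean values above all array medians, where 26.6% of all genes were called. ARG1, the arginase of neutrophil granules, rose by 1.97 ± 0.15 (adjusted p = 2.41e-05) on 1 of its 4 probe sets, with the others down to −0.15. The vehicle mean of ARG1, 4.06, lay below all array medians and was not shown to be above background. QSOX1, a sulfhydryl oxidase, rose by 0.73 ± 0.08 on 1 of 3 probe sets, and CTSB, the lysosomal protease cathepsin B, by 0.52 ± 0.05 with all 5 of its probe sets called.

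Of 20 genes for processing, sorting and release of granule proteins, all measured, 2 rose and 2 fell (20%, against 17.9% of all genes). Their median was −0.01, and 19 of them had mean values above all array medians, where 26.6% of all genes were called. RAB27A, a GTPase that brings granules to the membrane, rose from 11.42 ± 0.09 (SD, n = 4) to 12.17 ± 0.02, a difference of 0.74 ± 0.05 (SE, adjusted p = 1.53e-05) that all 5 of its probe sets shared as calls. LAMP2, a lysosomal membrane protein, rose by 0.50 ± 0.07. CTSC, the protease that activates elastase, proteinase 3 and cathepsin G, fell by 0.31 on the log2 scale (adjusted p = 0.00150) on 1 of 4 probe sets, with another at 0.08, and was not called with the mean of its probe sets.

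Of 22 other genes of eosinophils, basophils and mast cells 20 were measured, 3 rose and 2 fell (25%, against 17.9% of all genes). Their median was 0.00, and 12 of them had mean values above all array medians, where 26.6% of all genes were called. ALOX5, the leukotriene enzyme, differed by 0.69 ± 0.18 (adjusted p = 0.0261), a rise on 1 of 4 probe sets that was no longer called when estradiol replicate 2 or 3, or vehicle replicate 3, was left out. With the median probe set of the gene ALOX5 differed by 0.12 and was not called (adjusted p = 0.290). CEBPE, the secondary granule regulator C/EBPε, rose from 5.25 ± 0.13 to 5.66 ± 0.13 (SD, n = 4), by 0.41 ± 0.08. KIT, the receptor for stem cell factor on mast cells and progenitors, fell by 0.37 on the log2 scale.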

How the data were processed

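Per the labels' protocols, total RNA of 8 samples was amplified and biotin-labelled for hybridization to arrays. Per the submitters' processing notes the authors used RMA, and the deposited table holds log2 expression. RMA gives the probe intensities of all arrays a common distribution before they are summarized, and can thereby hide shifts that most genes share. The deposited values still differed between arrays, with medians from 4.97 (estradiol replicate 1) to 5.08 (vehicle replicate 2). Neither chip definition nor genome build is stated in the labels. Of 54675 probe sets, 41097 had 1 gene symbol in the platform annotation, and 41043 of these were checked against RefSeq identifiers, with 0 changes. Each of 19775 genes was represented by its brightest probe set, by the mean of the 8 arrays.

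Estradiol and vehicle were compared with limma 3.58.1 (lmFit, eBayes) in R 4.3.3, two-sided, without a block, and tested on simulated data. Called means a Benjamini-Hochberg adjusted p below 0.05 over all genes. Errors of differences are SEs, those of levels SDs over 4 arrays. The number of arrays limits the precision.

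The 42 members and all lists were chosen with earlier results of these data known. Values in every array were to be given for called members, for those above the array medians, and for ELANE, MPO, LTF, MMP9, PRG2 and HDC. Up to 3 called genes were named from each other list. Alternatives were other scalings, filters, probe set rules, variance models, thresholds, a replicate block and each array left out.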

Additional observations from a re-analysis of the deposited data

Results flagged for a closer look

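In 8 of the 84 groups of 4 arrays looked at (42 genes, 2 groups each) 1 array stood apart from the other 3, judged by its gap to the nearest array as a share of the whole range. Chance flags about 1 in 20 such groups. With vehicle, replicate 3 was high for ELANE (4.65 against 4.47 to 4.49, share 0.922), for HP (5.24 against 4.89 to 4.93, share 0.882) and for DEFA4 (4.03 against 3.95 to 3.96, share 0.831). Vehicle replicate 1 was low for PTX3, at 2.92 against 3.35 to 3.41 (share 0.877). With estradiol, replicate 3 was high for PGLYRP1 (5.62 against 5.37 to 5.40, share 0.875), replicate 4 for CST7 (4.14 against 3.89 to 3.92, share 0.859) and replicate 2 for CPA3 (3.62 against 3.50 to 3.52, share 0.830). Estradiol replicate 1 was low for PADI4, at 4.12 against 4.54 to 4.59 (share 0.904).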

How the results depend on the processing

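Over 806 values of the 42 genes under alternatives, 767 stayed on the same side of the threshold, 30 lost a call and 9 gained one. A turn in direction was counted only where the main fit or the alternative gave a call, and 0 were found. Genes called in neither fit could change sign, as MPO did from −0.02 to 0.09 with the mean of its probe sets. PTX3, MS4A3, SRGN, HP, SERPINB1 and PRG2 kept their calls under every alternative that included them. The number of members called higher ran from 6 to 9. That of members called lower, 1, was 0 with median centring, quantile normalization, cyclic loess, the filter at the median, every probe set tested on its own, a trend with a robust fit, or adjusted p below 0.01. It was 2 with array weights, and 0 to 1 with each array left out. The genes called, 3538, became 5404 probe sets when each was tested on its own, 2179 at adjusted p below 0.01, and 2732 to 3551 with each array left out. ARG1 turned to −0.15 with the median probe set of each gene.

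With the replicate number as a block 2598 genes and 8 members higher and 1 lower were called. CEACAM8 was then called, and TCN1 was not. Of the genes named from other lists, ALOX5 (adjusted p = 0.0850), HBE1 (0.0612) and KIT (0.0528) were not called with the block. Deviations of same-numbered samples correlated at −0.05, −0.21, 0.09 and 0.11. Of the estradiol samples only replicate 3 correlated best with the vehicle sample of its own number, so the numbers were not taken to pair the samples. The cause of these shifts was not tested. Signal over background limits the dim genes.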
